A study of Mus musculus with 24 samples.

Results

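Interferon response genes are the genes that a cell turns on when interferon binds its receptors or when the cell detects foreign nucleic acid. The set described here has 37 members, chosen by symbol with earlier results of these data known. Every member was found among the 32719 genes counted in cultured mouse astrocytes. All 37 also passed the filter on low counts that left 15599 genes for testing, and no member had fewer than 522 counts in any library. The cells came from the cortex of newborn pups whose insulin receptor gene carried floxed alleles, and contaminating cells were shaken off the flasks. Each of 6 groups had 4 libraries. IRKO cultures had received adenovirus for Cre fused to green fluorescent protein (Cre:GFP), which deletes the receptor gene, and IRflox cultures, the controls, had received adenovirus for GFP alone. After 5 more days and an overnight serum starvation, cultures of each genotype spent 6 h with insulin at 100 nM, IGF-1 at 100 nM, or vehicle. All cultures had therefore met an adenovirus, no uninfected library was analysed here, and genotype and virus cannot be told apart. Whether replicates were grown as separate cultures is not stated in the labels, and p-values therefore measure only how far these libraries differ, which may be technical.

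Interferons signal through cell-surface receptors to the kinases JAK1 and TYK2, which phosphorylate transcription factors of the STAT family. Type I interferons lead to a complex that holds STAT2 and IRF9 and binds the interferon-stimulated response element (ISRE), whereas interferon-gamma leads to factors that bind the gamma-activated site (GAS). Astrocytes carry the receptors and are one of the brain's sources of type I interferon in viral infection. The induced genes encode sensors of viral RNA, transcription factors that amplify the response, proteins that block viral growth, the ubiquitin-like modifier ISG15 with its enzymes, and parts of the antigen presentation machinery.

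Each library held 15429688 to 19010986 counts in genes, and levels are given as CPM, which are counts scaled to the size of the library. Insr, the floxed gene, had 26.6 to 30.6 CPM in IRKO insulin libraries against 47.5 to 52.6 CPM in IRflox insulin libraries, and 37.7 to 43.7 CPM in IRKO vehicle libraries against 58.8 to 66.9 CPM in IRflox vehicle libraries. The 12 astrocyte markers all passed the filter and summed to 4558 to 5394 CPM, although S100b was low. All 17 microglia markers passed as well, with a sum of 1703 to 2011 CPM in IRKO libraries and 1441 to 1718 CPM in IRflox libraries. Of the 4 T and natural killer cell markers, none exceeded 1 count in any library. The 21 genes for interferons themselves were not tested because of low counts, and Ifnb1 had the highest count of any, 15 in 1 library. Fewer cells of a type and less RNA per cell cannot be told apart in such bulk RNA. Members moved together from library to library: vehicle replicate 3 of IRflox was the highest of its 4 for 33 of 37 members, with a median excess of 0.13 on the log2 scale over the group mean, against 0.01 over all genes. Counts of members that share a direction are therefore not counts of separate observations.

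Promoter stretches are shown because the factors named above bind these elements. RefSeq (GRCm38.p6) gave a window from 250 bases before to 50 bases after the start for 28 of the 37 members. The ISRE was searched on both strands as GAAA, any 2 bases and GAAA, so that TTTC, 2 bases and TTTC marks a match on the opposite strand. The GAS was searched as TTC, any 3 bases and GAA, which reads the same on both. An ISRE match was found in 14 of 28 windows (50%), against 3.44% of all 32851 windows. A GAS match was found in 7 of 28 (25.0%), against 8.3% of all windows. Each stretch is written 5′ to 3′ along the gene's own strand, with the matched letters in capitals, and where matches overlap the capitals run on. Isg15, at chr4:156200861-156200910 on the minus strand, holds 3 overlapping ISRE matches between 78 and 57 bases before the start. Ifit1, at chr19:34640771-34640827 on the plus strand, holds 2 between 104 and 76 bases before it. Ifit3, at chr19:34583359-34583430, and Ifit3b, at chr19:34607755-34607826, both on the plus strand, have the same 72 bases. Stat2 is at chr10:128270262-128270299, Gbp3 at chr3:142559985-142560028 and Gbp7 at chr3:142530269-142530306, all on the plus strand. Rsad2 is at chr12:26456549-26456586 on the minus strand. The GAS matches shown are from Irf1, at chr11:53769910-53769946, and Ifit2, at chr19:34550444-34550475, both on the plus strand, and from Samhd1, at chr2:157135309-157135345 on the minus strand. These are the members given with values in every library whose window holds a match before the start, with 1 motif shown for each.
Isg15: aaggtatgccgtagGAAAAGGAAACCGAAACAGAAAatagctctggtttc
Ifit1: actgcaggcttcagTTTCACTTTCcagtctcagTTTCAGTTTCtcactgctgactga
Ifit3: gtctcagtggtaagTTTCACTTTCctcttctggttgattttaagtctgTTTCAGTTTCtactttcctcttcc
Ifit3b: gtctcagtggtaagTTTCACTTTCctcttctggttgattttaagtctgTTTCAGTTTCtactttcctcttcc
Stat2: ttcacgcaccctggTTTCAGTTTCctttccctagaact
Gbp3: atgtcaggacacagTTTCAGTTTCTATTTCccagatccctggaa
Gbp7: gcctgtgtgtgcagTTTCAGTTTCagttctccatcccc
Rsad2: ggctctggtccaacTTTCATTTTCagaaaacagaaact
Irf1: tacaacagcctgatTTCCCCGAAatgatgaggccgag
Ifit2: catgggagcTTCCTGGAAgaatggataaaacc
Samhd1: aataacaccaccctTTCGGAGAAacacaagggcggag
A match describes the letters and is not evidence of binding. The windows of Dtx3l, Oasl2 and Ifi44 held no match of either motif, and those of Ddx58 (ISRE) and Ifi35 (GAS) held one only after the start. Between insulin and IGF-1 in IRflox cultures, the contrast described below, 6 of the 14 members with an ISRE match were called and 6 of the 14 without one, with medians of 0.16 and 0.14 on the log2 scale. Of all genes tested, 2.59% were called in that contrast. Dhx58, Zbp1, Mx1, Mx2, Usp18, Parp9, Parp14, Ifi27 and Rtp4 had no window in the table.

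Together the 37 members took 1.04 to 1.16% of the gene counts in group means. Their CPM summed to 10787 ± 122 in IRKO insulin, 10596 ± 304 in IRKO IGF-1 and 10910 ± 332 in IRKO vehicle cultures (SD, n = 4 each). In IRflox cultures the sums were 11599 ± 274 with insulin, 10434 ± 491 with IGF-1 and 11577 ± 717 with vehicle (SD, n = 4 each). Per kilobase of exon in IRflox vehicle cultures, the highest mean level was that of B2m, the light chain of MHC class I, at 2322 CPM per kb, followed by Bst2, the virion-tethering membrane protein, at 825 CPM per kb. Ifit3 had 585 and Isg15 had 360 CPM per kb, whereas the GTPases Mx1 and Mx2 had 14.8 and 9.27 CPM per kb. The interferon response genes were thus well counted in every group, including cultures that received vehicle.

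**Figure D1:**
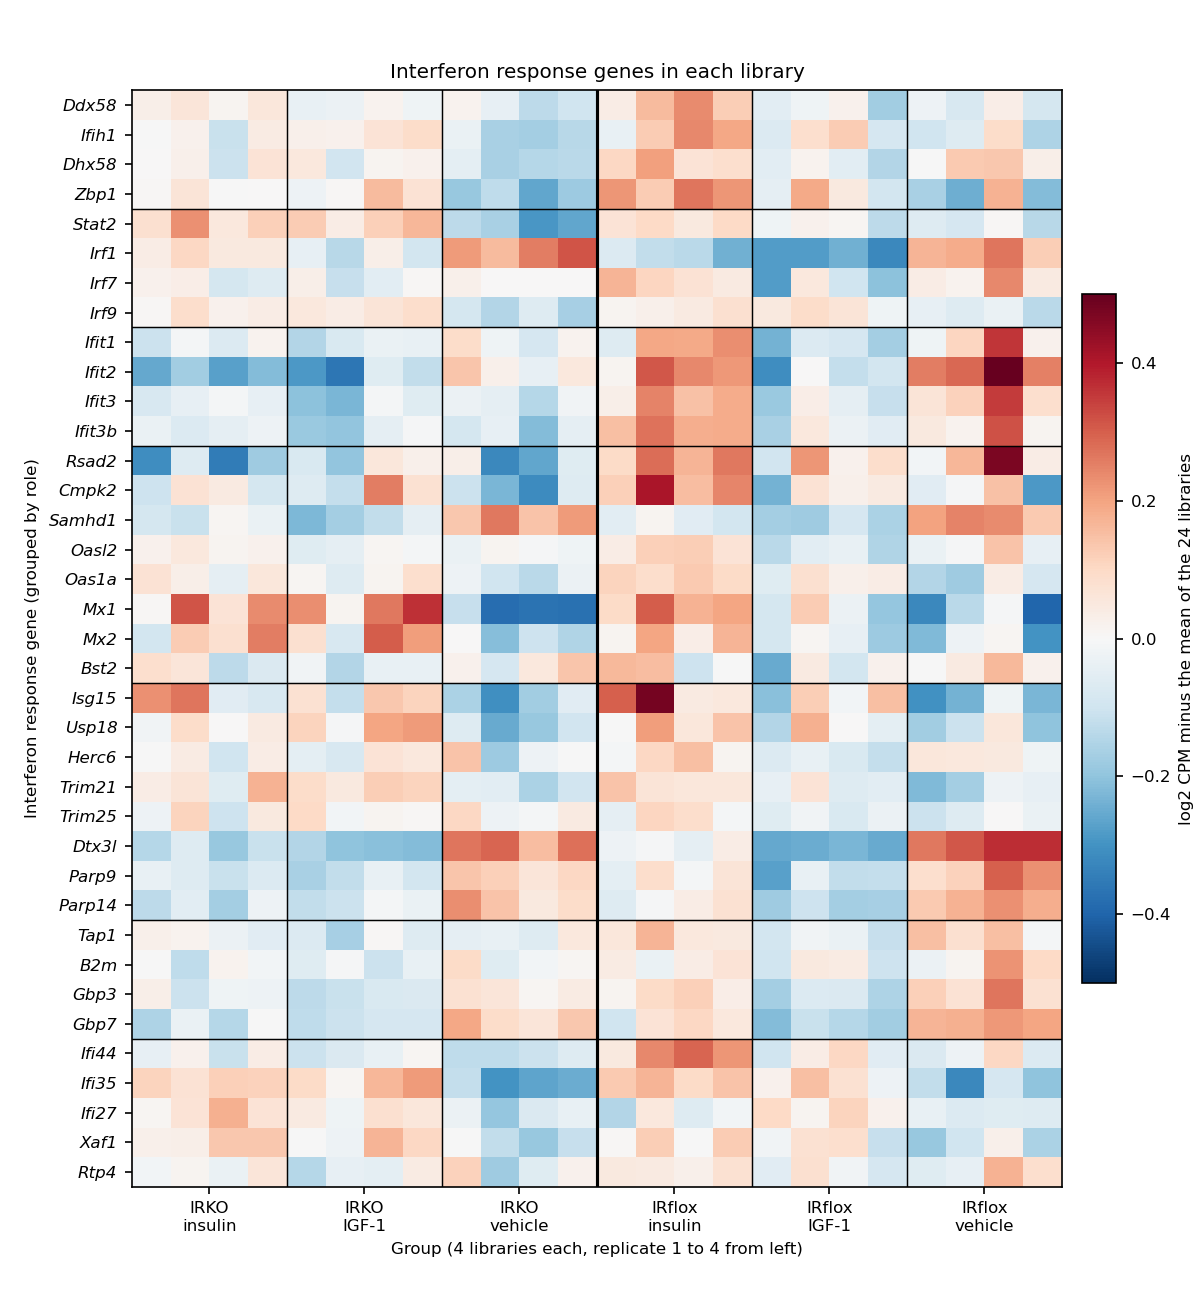
The 37 genes (rows, grouped by role) in the 24 libraries (columns, replicates 1 to 4 from the left in each group), as log2 CPM minus the gene's mean over all libraries, on a colour scale of ±0.5. Vehicle replicate 3 of IRflox was the highest of the 4 libraries of its group for 33 of the 37 genes.

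Insulin against IGF-1 asks whether the 2 ligands, at the same dose, leave these genes at different levels while the insulin receptor is present. In IRKO cultures the contrast called 0 members, whereas in IRflox cultures 14 members were higher with insulin and 0 were lower. Among all genes tested, 1.49% were called higher and 1.1% lower in IRflox, 2.59% in either direction (adjusted p under 0.05 by the quasi-likelihood test of edgeR, with the Benjamini-Hochberg adjustment). The 14 members called in IRflox were all 4 Ifit genes, the ubiquitin and ADP-ribose enzymes Dtx3l, Parp9 and Parp14, the antigen presentation and guanylate-binding genes Tap1, Gbp3 and Gbp7, the RNA sensor Ddx58 (RIG-I), the transcription factor Irf7, Oasl2 and Ifi44. Differences were small, from 0.15 to 0.32 on the log2 scale. In IRflox, 35 of the 37 were on the insulin side, with a median of 0.16, whereas 49.0% of all genes were, with a median of -0.00. The exceptions were Irf9 (-0.00) and Ifi27 (-0.10, adjusted p 0.228). The 4 insulin libraries did not overlap the 4 IGF-1 libraries for 17 members, against 7.8% of all genes. At an unadjusted p under 0.05, 27 members were higher and 1 was lower, where 7.19% of all genes were higher and 6.49% lower (13.7% in either direction). The 37 members were chosen with earlier results of these data known, so the all-gene shares beside them are no test of the set.

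The Ifit genes encode RNA-binding proteins that hold back translation of foreign RNA, and the 4 members lie in a row on the plus strand of chromosome 19 (mm10), from Ifit2 at chr19:34550694-34576419 over Ifit3 at chr19:34583531-34588731 and Ifit3b at chr19:34607970-34613401 to Ifit1 at chr19:34640871-34650009. Ifit2 had 299, 368, 350 and 345 CPM in IRflox insulin libraries, 239, 297, 273 and 279 CPM in IRflox IGF-1 libraries, and 354, 361, 427 and 353 CPM in IRflox vehicle libraries. Every insulin library was above every IGF-1 library, and the insulin libraries overlapped those with vehicle. Insulin over IGF-1 was 0.32 on the log2 scale (SE 0.0614, adjusted p 0.000938). Ifit1 had 364, 436, 435 and 449 CPM in IRflox insulin libraries, 323, 364, 359 and 339 CPM in IRflox IGF-1 libraries, and 376, 411, 488 and 387 CPM in IRflox vehicle libraries. Insulin and IGF-1 libraries only just separated, since the lowest insulin library lay next to the highest with IGF-1, and the difference was 0.28 (SE 0.0575, adjusted p 0.00239). Ifit3b had 314, 341, 320 and 321 CPM in IRflox insulin libraries, 253, 293, 277 and 272 CPM in IRflox IGF-1 libraries, and 292, 286, 353 and 286 CPM in IRflox vehicle libraries. Again no insulin library overlapped one with IGF-1, and the difference was 0.24 (SE 0.052, adjusted p 0.00402). Ifit3 had 934, 1086, 1013 and 1039 CPM in IRflox insulin libraries, 805, 937, 886 and 844 CPM in IRflox IGF-1 libraries, and 957, 991, 1166 and 968 CPM in IRflox vehicle libraries. For Ifit3 the groups overlapped at 1 library each, the difference was 0.23 (SE 0.0523, adjusted p 0.00724), and the call was lost without IGF-1 replicate 1 (adjusted p 0.0509) or without insulin replicate 2 (0.0549). Ifit3 and Ifit3b share 41.1% and 35.7% of their 75-base stretches with each other, so how reads were split between them is uncertain.

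Dtx3l, a ubiquitin ligase that works as a pair with the ADP-ribosyltransferase-like PARP9, lies on the minus strand at chr16:35926511-35939151 and overlaps Parp9, at chr16:35938470-35972605 on the plus strand, by 8.0% of its exon length. It had the lowest p of the family. Dtx3l had 171, 173, 169 and 179 CPM in IRflox insulin libraries, 146, 147, 149 and 146 CPM in IRflox IGF-1 libraries, and 209, 216, 225 and 225 CPM in IRflox vehicle libraries. The 3 groups formed separate steps, with IGF-1 at the bottom, insulin in the middle and vehicle at the top. Insulin over IGF-1 was 0.24 (SE 0.0377, adjusted p 0.000102). Parp14, a neighbouring ADP-ribosyltransferase at chr16:35832874-35871544 on the minus strand, showed the same order. It had 603, 629, 648 and 664 CPM in IRflox insulin libraries, 557, 587, 561 and 562 CPM in IRflox IGF-1 libraries, and 691, 711, 738 and 715 CPM in IRflox vehicle libraries. The difference between ligands was 0.17 for Parp14 (SE 0.04, adjusted p 0.0133), which was lost without insulin replicate 4 (adjusted p 0.0571). Parp9 differed by 0.16 (SE 0.0445, adjusted p 0.0389), and 6 of the 8 libraries, left out in turn, ended that call, with an adjusted p of 0.2 without IGF-1 replicate 1. Reads from the part shared by Dtx3l and Parp9 cannot be assigned to a strand in these unstranded libraries.

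Guanylate-binding proteins are GTPases that attack the vacuoles of intracellular pathogens, and both members are neighbours on chromosome 3. Gbp7, at chr3:142530342-142550149, had 286, 322, 329 and 318 CPM in IRflox insulin libraries, 263, 284, 277 and 272 CPM in IRflox IGF-1 libraries, and 345, 347, 356 and 352 CPM in IRflox vehicle libraries. The 3 groups did not overlap, and insulin over IGF-1 was 0.20 (SE 0.0403, adjusted p 0.00255). Gbp3, at chr3:142560026-142573209, had 522, 553, 562 and 530 CPM in IRflox insulin libraries, 460, 493, 492 and 465 CPM in IRflox IGF-1 libraries, and 562, 543, 622 and 546 CPM in IRflox vehicle libraries. Insulin libraries lay above all those with IGF-1 and overlapped those with vehicle, and the difference between ligands was 0.18 (SE 0.0393, adjusted p 0.00442). Tap1, which carries peptides to MHC class I, differed by 0.15 (SE 0.0406, adjusted p 0.039), and 6 of the 8 libraries left out in turn ended the call, with an adjusted p of 0.191 without insulin replicate 2.

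Ddx58, which encodes the viral RNA sensor RIG-I, had 281, 305, 322 and 298 CPM in IRflox insulin libraries, 264, 269, 278 and 242 CPM in IRflox IGF-1 libraries, and 269, 259, 280 and 257 CPM in IRflox vehicle libraries. The insulin libraries were above every other IRflox library, and IGF-1 and vehicle libraries overlapped. Insulin over IGF-1 was 0.20 (SE 0.0414, adjusted p 0.00354). Oasl2, a relative of the oligoadenylate synthetases that activate RNase L, had 544, 577, 578 and 557 CPM in IRflox insulin libraries, 483, 512, 517 and 478 CPM in IRflox IGF-1 libraries, and 519, 529, 586 and 516 CPM in IRflox vehicle libraries. The ligand groups were apart, with a difference of 0.18 (SE 0.0372, adjusted p 0.00255). Irf7, which amplifies type I interferon production, differed by 0.23 (SE 0.0498, adjusted p 0.00529). Ifi44 differed by 0.20 (SE 0.0462, adjusted p 0.00693), and lost its call without IGF-1 replicate 1 (adjusted p 0.0502) or insulin replicate 3 (0.0507). Just outside the threshold were Cmpk2 (0.25, adjusted p 0.0506), Dhx58 (0.17, 0.053) and Irf1 (0.14, 0.0582), and DESeq2 called Dhx58 (0.0413) and Irf1 (0.033).

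The sum of the astrocyte markers also differed in this contrast. The summed level of the 12 markers was 4934 to 5227 CPM in IRflox insulin libraries against 4558 to 4712 CPM in IRflox IGF-1 libraries. Of the 12, only 4 were called higher and 0 lower, where 1.49% of all genes were higher and 1.1% lower. Microglia markers summed to 1441 to 1561 CPM in IRflox insulin libraries and 1475 to 1574 CPM in IRflox IGF-1 libraries, with 0 of 17 called. Markers of the oligodendrocyte lineage, of which 8 of 10 passed the filter, summed to 377 to 418 CPM in IRflox insulin libraries against 420 to 448 CPM in IRflox IGF-1 libraries, with 1 called higher and 2 lower. The part of these cell types in the interferon result was not tested. With 1 library left out at a time, 10 to 17 members were called, all higher with insulin; 10 were called without IGF-1 replicate 1 and 17 were called without IGF-1 replicate 2, the library that was highest of its group for 27 members.

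**Figure D2:**
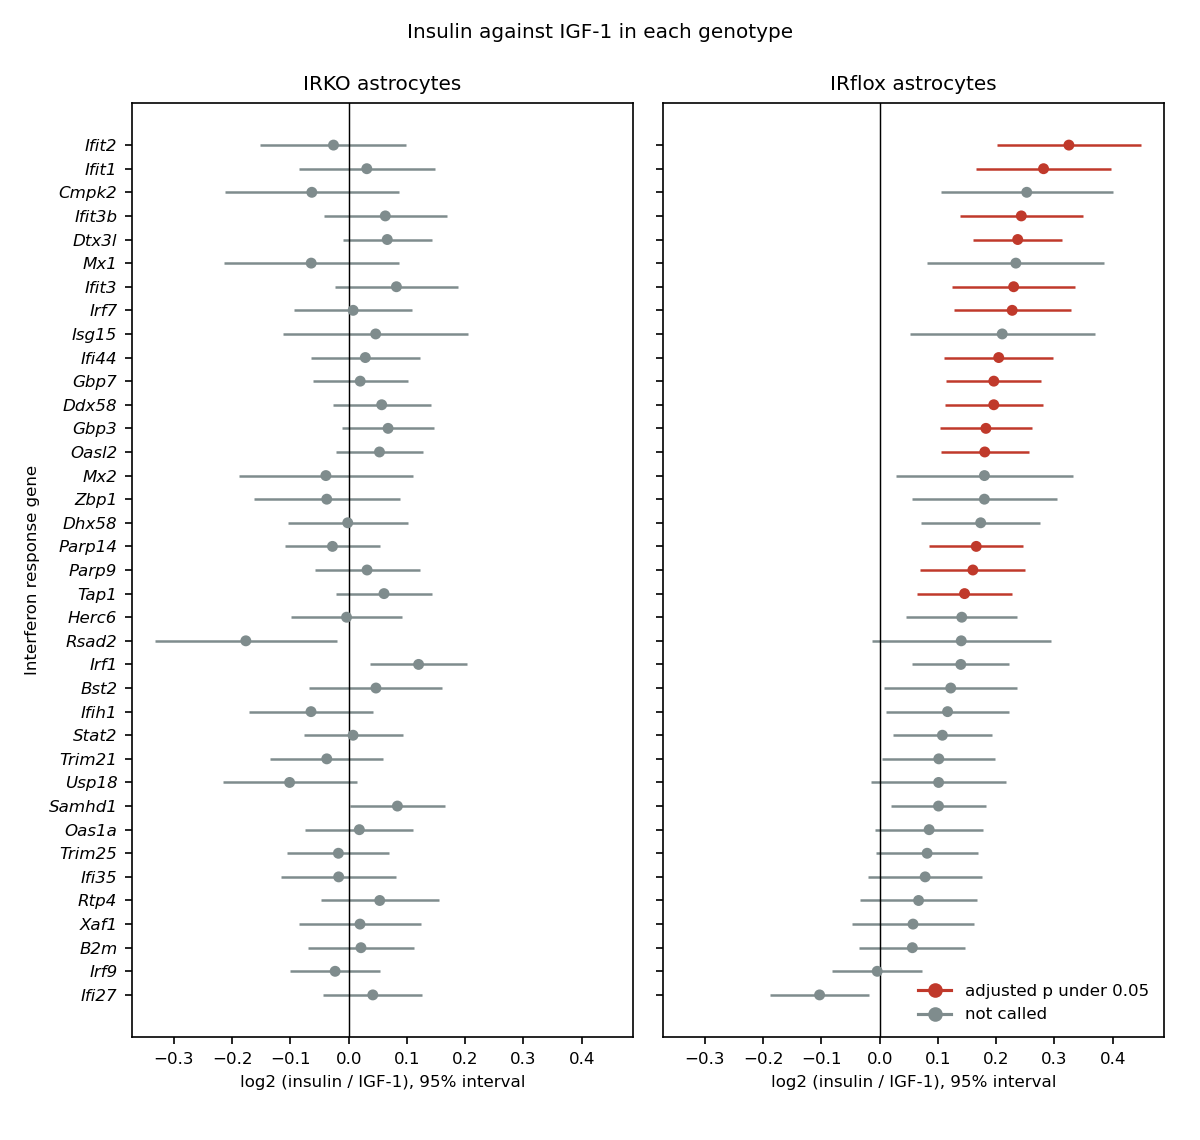
Insulin against IGF-1 for each of the 37 genes, as the log2 difference with its 95% interval, in IRKO cultures (left panel) and IRflox cultures (right panel), sorted by the IRflox value. Red marks an adjusted p under 0.05, which 0 genes reached in IRKO and 14 in IRflox.

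In IRKO cultures the 0 members called stood against 2.67% of all genes, 1.06% higher and 1.61% lower. DESeq2 also called 0. Of the 37, 22 were on the insulin side, with a median of 0.02, and 3 had an unadjusted p under 0.05, against 13.8% of all genes: 2 were higher (6.84% of all genes) and 1 was lower. The libraries of the 2 ligands did not overlap for 2 members, Irf1 and Oasl2, against 8.89% of all genes. Ifit2 had 248, 263, 245 and 255 CPM in IRKO insulin libraries, 243, 231, 284 and 272 CPM in IRKO IGF-1 libraries, and 326, 302, 288 and 307 CPM in IRKO vehicle libraries. The ligand libraries overlapped, and insulin over IGF-1 was -0.03 (95% interval -0.15 to 0.10). Dtx3l had 158, 167, 153 and 161 CPM in IRKO insulin libraries, 157, 152, 151 and 150 CPM in IRKO IGF-1 libraries, and 210, 213, 194 and 211 CPM in IRKO vehicle libraries. Its ligand difference was 0.07 (95% interval -0.01 to 0.14). Of the other members shown above for IRflox cultures, the interval in IRKO cultures was -0.09 to 0.15 for Ifit1, -0.06 to 0.10 for Gbp7, -0.02 to 0.13 for Oasl2, -0.03 to 0.14 for Ddx58, -0.04 to 0.17 for Ifit3b and -0.01 to 0.15 for Gbp3. The lowest adjusted p of any member was 0.116, for Irf1 (0.12, 95% interval 0.04 to 0.20). Rsad2, which encodes the antiviral radical enzyme viperin, was on the IGF-1 side, with 138, 163, 134 and 151 CPM in IRKO insulin libraries and 162, 149, 178 and 174 CPM in IRKO IGF-1 libraries. The libraries overlapped, and the difference of -0.18 (95% interval -0.33 to -0.02) did not pass (adjusted p 0.277). Astrocyte markers summed to 5142 to 5283 CPM in IRKO insulin libraries and 4875 to 4937 CPM in IRKO IGF-1 libraries, though only 2 of 12 were called higher. Markers of the oligodendrocyte lineage summed to 434 to 441 CPM in IRKO insulin libraries and 461 to 493 CPM in IRKO IGF-1 libraries, with 0 of 8 called higher and 1 lower.

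The 0 calls in IRKO beside 14 in IRflox do not show that the genotypes differ, so the difference of the ligand differences was tested directly. It called 0 members and 0 of all genes, and DESeq2 called 0 members. The IRKO value was below the IRflox value for 36 of 37 members, with a median difference of -0.14 against 0.00 over all genes, while 50.1% of all genes were above. At an unadjusted p under 0.05, 22 members were lower and 1 was higher, against 4.42% of all genes in either direction. The lowest adjusted p was 0.4, for Ifit2, whose ligand difference was lower in IRKO, at -0.35 (SE 0.0873, 95% interval -0.53 to -0.17). The same members and libraries supply the within-genotype results above, so this is not separate evidence.

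The comparisons with vehicle show how each ligand moved the family. In both genotypes the members split: Dtx3l, Parp9, Parp14, Samhd1, Irf1 and Gbp7 were lower with either ligand, while Ifi35, Irf9 and Isg15 were higher with either, although calls of Irf9 and Isg15 depended on the setting, as given below. In IRKO cultures 13 members were higher and 7 lower with insulin, where 24.7% of all genes were higher and 21.7% lower (46.4% in either direction). With IGF-1 in IRKO cultures 14 were higher and 8 lower, where 26.9% of all genes were higher and 25.1% lower (52.0%). In IRflox cultures 15 were higher and 6 lower with insulin (24.3% and 21.4% of all genes, 45.7% together), and 5 were higher and 16 lower with IGF-1 (26.4% and 24.4% of all genes, 50.8% together). The number of members called in either direction was near the share of all genes and is not a result about this family. Ligand and vehicle libraries did not overlap for 16 members with insulin (38.8% of all genes) and 17 with IGF-1 (44.9%) in IRKO cultures, and for 14 with insulin (38.1%) and 15 with IGF-1 (43.3%) in IRflox cultures. Member medians were 0.04 for insulin and 0.01 for IGF-1 in IRKO cultures, and 0.04 for insulin and -0.11 for IGF-1 in IRflox cultures, against all-gene medians within 0.01 of 0. The split of IGF-1 in IRflox cultures depended on vehicle replicate 3: without it 9 members were higher and 12 lower, and the median was -0.02. The count of higher members in that contrast was 2 without vehicle replicate 4 or IGF-1 replicate 2 and 3 without vehicle replicate 1, vehicle replicate 2 or IGF-1 replicate 3. It was also 3 by DESeq2 and with a filter on a mean CPM of at least 1. For IGF-1 in IRKO cultures, 8 members were higher without IGF-1 replicate 3. The 2 ligand contrasts of a genotype share their vehicle libraries. Microglia markers were lower with both ligands, in 14 of 17 with insulin and 13 of 17 with IGF-1 in IRKO cultures, and in 10 of 17 and 7 of 17 in IRflox cultures, with none higher. Markers of the oligodendrocyte lineage summed to 434 to 441 CPM with insulin, 461 to 493 CPM with IGF-1 and 332 to 354 CPM with vehicle in IRKO cultures, and to 377 to 418 CPM with insulin, 420 to 448 CPM with IGF-1 and 306 to 331 CPM with vehicle in IRflox cultures, so every ligand library was above every vehicle library. Of the 8 tested, 2 to 3 were called higher and 1 to 3 lower in each comparison. Astrocyte markers summed to 4875 to 4937 CPM with IGF-1 and 5099 to 5394 CPM with vehicle in IRKO cultures, and to 4558 to 4712 CPM with IGF-1 and 4897 to 5189 CPM with vehicle in IRflox cultures, where 16 members were lower, while insulin and vehicle libraries overlapped in both genotypes. Neuron markers, of which 7 of 10 were tested, summed to 164 to 175 CPM with insulin, 160 to 171 CPM with IGF-1 and 147 to 150 CPM with vehicle in IRflox cultures, with 1 to 2 called higher and 1 lower. The part of these cell types in the results was not tested.

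**Figure D3:**
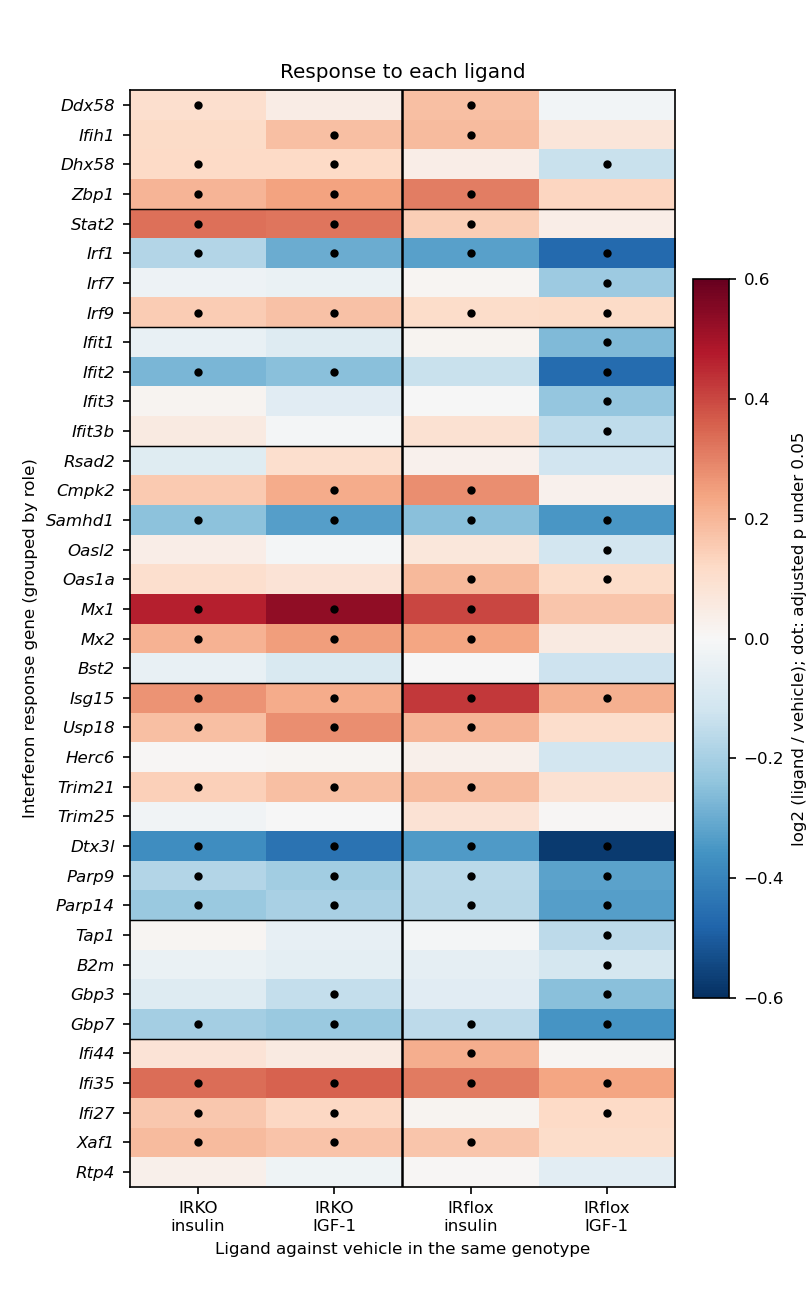
Log2 difference of each ligand from vehicle for the 37 genes, in IRKO insulin, IRKO IGF-1, IRflox insulin and IRflox IGF-1 cultures, on a colour scale of ±0.6, with a dot at an adjusted p under 0.05. Dtx3l, Parp9, Parp14, Samhd1, Irf1 and Gbp7 are low and marked in all 4 columns, and 16 genes are low and marked with IGF-1 in IRflox cultures.

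Dtx3l was among the members with the lowest p in all 4 comparisons. Its values, given above, had every ligand library below every vehicle library in both genotypes. Its change was -0.37 with insulin (SE 0.0372, adjusted p 3.53e-11) and -0.44 with IGF-1 (SE 0.0373, adjusted p 3.27e-13) in IRKO cultures, and -0.34 with insulin (SE 0.0371, adjusted p 4.23e-10) and -0.58 with IGF-1 (SE 0.0374, adjusted p 1.11e-16) in IRflox cultures. Irf1, a transcription factor best known as an early target of interferon-gamma, lies at chr11:53770014-53778374. Irf1 had 229, 240, 230 and 231 CPM in IRKO insulin libraries, 217, 202, 227 and 209 CPM in IRKO IGF-1 libraries, and 259, 249, 266 and 277 CPM in IRKO vehicle libraries. In IRflox cultures Irf1 had 213, 205, 203 and 189 CPM with insulin, 184, 184, 189 and 178 CPM with IGF-1, and 250, 253, 268 and 243 CPM with vehicle. No ligand library overlapped a vehicle library, and the changes were -0.18 with insulin and -0.30 with IGF-1 in IRKO cultures (adjusted p for IGF-1 5.91e-08), and -0.33 with insulin (adjusted p 9.68e-09) and -0.47 with IGF-1 (adjusted p 8.79e-13) in IRflox cultures.

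Samhd1 encodes the enzyme that breaks down deoxynucleotides and so limits reverse transcription, and lies at chr2:157097533-157135265. It had 207, 204, 222 and 216 CPM in IRKO insulin libraries, 189, 196, 202 and 214 CPM in IRKO IGF-1 libraries, and 242, 265, 244 and 256 CPM in IRKO vehicle libraries. In IRflox cultures it had 213, 223, 212 and 207 CPM with insulin, 196, 195, 208 and 198 CPM with IGF-1, and 254, 262, 260 and 242 CPM with vehicle. Vehicle libraries were again the highest without overlap, and Samhd1 changed by -0.25 with insulin (adjusted p 2.39e-06) and -0.33 with IGF-1 (adjusted p 4.68e-09) in IRKO cultures, and by -0.25 with insulin (adjusted p 1.69e-06) and -0.35 with IGF-1 (adjusted p 9.45e-10) in IRflox cultures. Parp14 had 576, 608, 561 and 620 CPM in IRKO insulin libraries, 579, 586, 627 and 617 CPM in IRKO IGF-1 libraries, and 741, 696, 653 and 672 CPM in IRKO vehicle libraries. It changed by -0.22 with insulin in IRKO cultures (SE 0.0399, adjusted p 1.01e-05) and by -0.33 with IGF-1 in IRflox cultures (SE 0.04, adjusted p 3.02e-09). Gbp7 changed by -0.35 with IGF-1 in IRflox cultures (SE 0.0402, adjusted p 8.37e-10) and by -0.16 with insulin. All 4 antigen presentation and guanylate-binding members, Tap1, B2m, Gbp3 and Gbp7, were lower with IGF-1 in IRflox cultures, where 24.4% of all genes were. With insulin in IRflox cultures 1 of 4 was lower, where 21.4% of all genes were. Gbp3 was also called lower with insulin there under a filter on a mean CPM of at least 1 (-0.09, adjusted p 0.045). B2m (-0.11) lost its call without vehicle replicate 3 (adjusted p 0.297), vehicle replicate 4 (0.0778), IGF-1 replicate 1 (0.0982) or IGF-1 replicate 4 (0.109), and in the fit of only the groups compared (0.052).

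Only Ifit2 among the 4 Ifit genes was called, and lower, with each ligand in IRKO cultures, whereas in IRflox cultures 0 of 4 were called with insulin and all 4 fell with IGF-1. Of all genes, 21.7% were lower with insulin and 25.1% with IGF-1 in IRKO cultures, and 21.4% and 24.4% in IRflox cultures. The summed CPM of the 4 was 1786 ± 28.9 with insulin, 1722 ± 115 with IGF-1 and 1831 ± 77.4 with vehicle in IRKO cultures, and 2103 ± 137 with insulin, 1760 ± 114 with IGF-1 and 2114 ± 215 with vehicle in IRflox cultures (SD, n = 4 each). Ifit2 changed by -0.27 with insulin (adjusted p 0.000285) and -0.25 with IGF-1 in IRKO cultures, and by -0.46 with IGF-1 in IRflox cultures (SE 0.0613, adjusted p 3.08e-08). Ifit1 (-0.26) and Ifit3 (-0.23) fell with IGF-1 in IRflox cultures under each library left out. Ifit3b (-0.15) lost its call there without vehicle replicate 3 (adjusted p 0.19) or IGF-1 replicate 1 (0.0508). Insulin in IRflox cultures gave Ifit2 a value close to the threshold. It became a lower call with either other scaling, with both other filters and in the fit of only the groups compared (adjusted p 0.00351 to 0.0459), though not by DESeq2. It was also called lower in 5 of the 8 sets with 1 library left out, the lowest being -0.18 without insulin replicate 2 (adjusted p 0.02). The count of 0 of 4 with insulin therefore depends on the setting.

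Members that rose included the ubiquitin-like modifier itself. Isg15, at chr4:156199424-156200818 on the minus strand, had 364, 375, 299 and 294 CPM in IRKO insulin libraries, 327, 286, 341 and 336 CPM in IRKO IGF-1 libraries, and 279, 251, 275 and 299 CPM in IRKO vehicle libraries. In IRflox cultures it had 383, 433, 320 and 322 CPM with insulin, 269, 339, 308 and 345 CPM with IGF-1, and 252, 264, 306 and 265 CPM with vehicle. The IRflox insulin libraries were above all those with vehicle, and the other ligand groups overlapped theirs. Isg15 rose by 0.42 with insulin in IRflox cultures (SE 0.079, adjusted p 2.33e-05). Its rise of 0.21 with IGF-1 in IRflox cultures was lost without any 1 of 5 libraries, namely vehicle replicates 1, 2 and 4 and IGF-1 replicates 2 and 4 (adjusted p 0.0568 to 0.124), and by DESeq2 (0.113). With IGF-1 in IRKO cultures its call was lost without vehicle replicate 2 (0.0736) or IGF-1 replicates 3 (0.0649) or 4 (0.0554), and by DESeq2 (0.0894). Mx1, a gene of the dynamin-like GTPase family, lies at chr16:97447035-97462907. It had 65.1, 80.6, 67.9 and 76.2 CPM in IRKO insulin libraries, 76.1, 65.4, 77.8 and 83.3 CPM in IRKO IGF-1 libraries, and 59.8, 49.7, 50.1 and 50 CPM in IRKO vehicle libraries. In IRflox cultures it had 69.1, 80.0, 72.9 and 74.2 CPM with insulin, 60.9, 70.7, 63.5 and 56.7 CPM with IGF-1, and 51.8, 59.0, 64.6 and 49.2 CPM with vehicle. Ligand and vehicle libraries were apart except for IGF-1 in IRflox cultures, and Mx1 rose by 0.47 with insulin (SE 0.076, adjusted p 2.32e-06) and 0.53 with IGF-1 (SE 0.0759, adjusted p 1.48e-07) in IRKO cultures and by 0.40 with insulin in IRflox cultures (SE 0.0759, adjusted p 3.06e-05). With IGF-1 in IRflox cultures it did not pass, but it did without vehicle replicate 3 (0.24, adjusted p 0.00942) or IGF-1 replicate 4 (0.20, adjusted p 0.0371). It also passed there with no filter beyond 1 count (0.17, adjusted p 0.00609).

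Ifi35, an interferon-induced leucine zipper protein, lies at chr11:101448407-101458698. It had 88.8, 86.5, 89.3 and 89.0 CPM in IRKO insulin libraries, 87.9, 82.7, 92.1 and 95.1 CPM in IRKO IGF-1 libraries, and 75.6, 66.8, 68.4 and 69.2 CPM in IRKO vehicle libraries. In IRflox cultures it had 90.1, 92.4, 87.9 and 90.8 CPM with insulin, 83.5, 91.3, 86.6 and 80.7 CPM with IGF-1, and 75.6, 65.7, 77.5 and 71.4 CPM with vehicle. No ligand library overlapped a vehicle library, and the rises were 0.34 with insulin (adjusted p 2.63e-07) and 0.35 with IGF-1 (adjusted p 7.61e-08) in IRKO cultures, and 0.31 with insulin (adjusted p 1.14e-06) and 0.24 with IGF-1 in IRflox cultures. Stat2, the STAT that is specific to type I and type III interferon signalling, lies at chr10:128270559-128292849. It had 296, 329, 291 and 305 CPM in IRKO insulin libraries, 307, 288, 305 and 315 CPM in IRKO IGF-1 libraries, and 256, 251, 229 and 234 CPM in IRKO vehicle libraries. In IRflox cultures it had 294, 300, 290 and 301 CPM with insulin, 276, 285, 282 and 256 CPM with IGF-1, and 268, 264, 281 and 255 CPM with vehicle. IRKO ligand libraries were all above IRKO vehicle libraries, and Stat2 rose there by 0.33 with insulin (SE 0.0422, adjusted p 1.64e-08) and 0.32 with IGF-1 (SE 0.0423, adjusted p 2.17e-08), against a rise of 0.15 with insulin in IRflox cultures. Irf9, the DNA-binding partner of STAT2, rose in all 4 comparisons, by 0.11 with each ligand in IRflox cultures, where its calls were lost without 4 and without 2 of the 8 libraries (adjusted p 0.0528 to 0.123 with insulin, for vehicle replicate 4 and insulin replicates 1, 3 and 4, and 0.0508 to 0.0742 with IGF-1, for vehicle replicate 4 and IGF-1 replicate 2). The call with insulin in IRflox cultures was also lost with both other filters and in the fit of only the groups compared (0.0528 to 0.0656).

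The 4 sensors of foreign nucleic acid were called in part, where 24.3 to 26.9% of all genes were higher in each comparison with vehicle. In IRKO cultures Ddx58, Dhx58 and Zbp1 were higher with insulin, and Ifih1, Dhx58 and Zbp1 with IGF-1. In IRflox cultures Ddx58, Zbp1 and Ifih1, which encodes the long double-stranded RNA sensor MDA5, were higher with insulin, and with IGF-1 0 were higher and Dhx58 was lower (-0.13). That count of 0 depended on the setting. Zbp1 was called higher with IGF-1 there without vehicle replicate 3 (0.24, adjusted p 0.00035) or IGF-1 replicate 4 (0.16, adjusted p 0.046). It was also called higher there with no filter beyond 1 count (0.13, adjusted p 0.0272). Zbp1, a sensor of Z-form nucleic acid, had 77.5, 80.6, 77.0 and 77.2 CPM in IRKO insulin libraries, 75.9, 77.4, 86.2 and 81.0 CPM in IRKO IGF-1 libraries, and 67.6, 70.7, 64.4 and 68.0 CPM in IRKO vehicle libraries. Every IRKO ligand library of Zbp1 was above every IRKO vehicle library. In IRflox cultures Zbp1 had 89.8, 84.2, 92.9 and 89.9 CPM with insulin, 74.8, 88.0, 79.7 and 72.3 CPM with IGF-1, and 69.0, 65.1, 87.0 and 66.3 CPM with vehicle. There the libraries of each ligand overlapped those with vehicle. The calls of Dhx58 were lost in IRKO cultures without any 1 of 6 libraries with insulin (adjusted p 0.0998 to 0.189, for all but vehicle replicate 1 and insulin replicate 3) and of 6 with IGF-1 (0.0945 to 0.142, for all but vehicle replicate 1 and IGF-1 replicate 2). They were also lost by DESeq2, with either other scaling, with both other filters and in the fit of only the groups compared (0.0693 to 0.16 with insulin, 0.0592 to 0.121 with IGF-1). That of Ddx58 with insulin in IRKO cultures was lost in those same settings (0.0604 to 0.0991) and without any library except vehicle replicate 1 (0.0628 to 0.2), and was kept in 2 of 15 alternatives. In IRflox cultures the call of Dhx58 with IGF-1 was lost without vehicle replicate 2 (0.0756), vehicle replicate 3 (0.0886) or IGF-1 replicate 4 (0.0781), and with no filter beyond 1 count (0.0675).

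**Figure D4:**
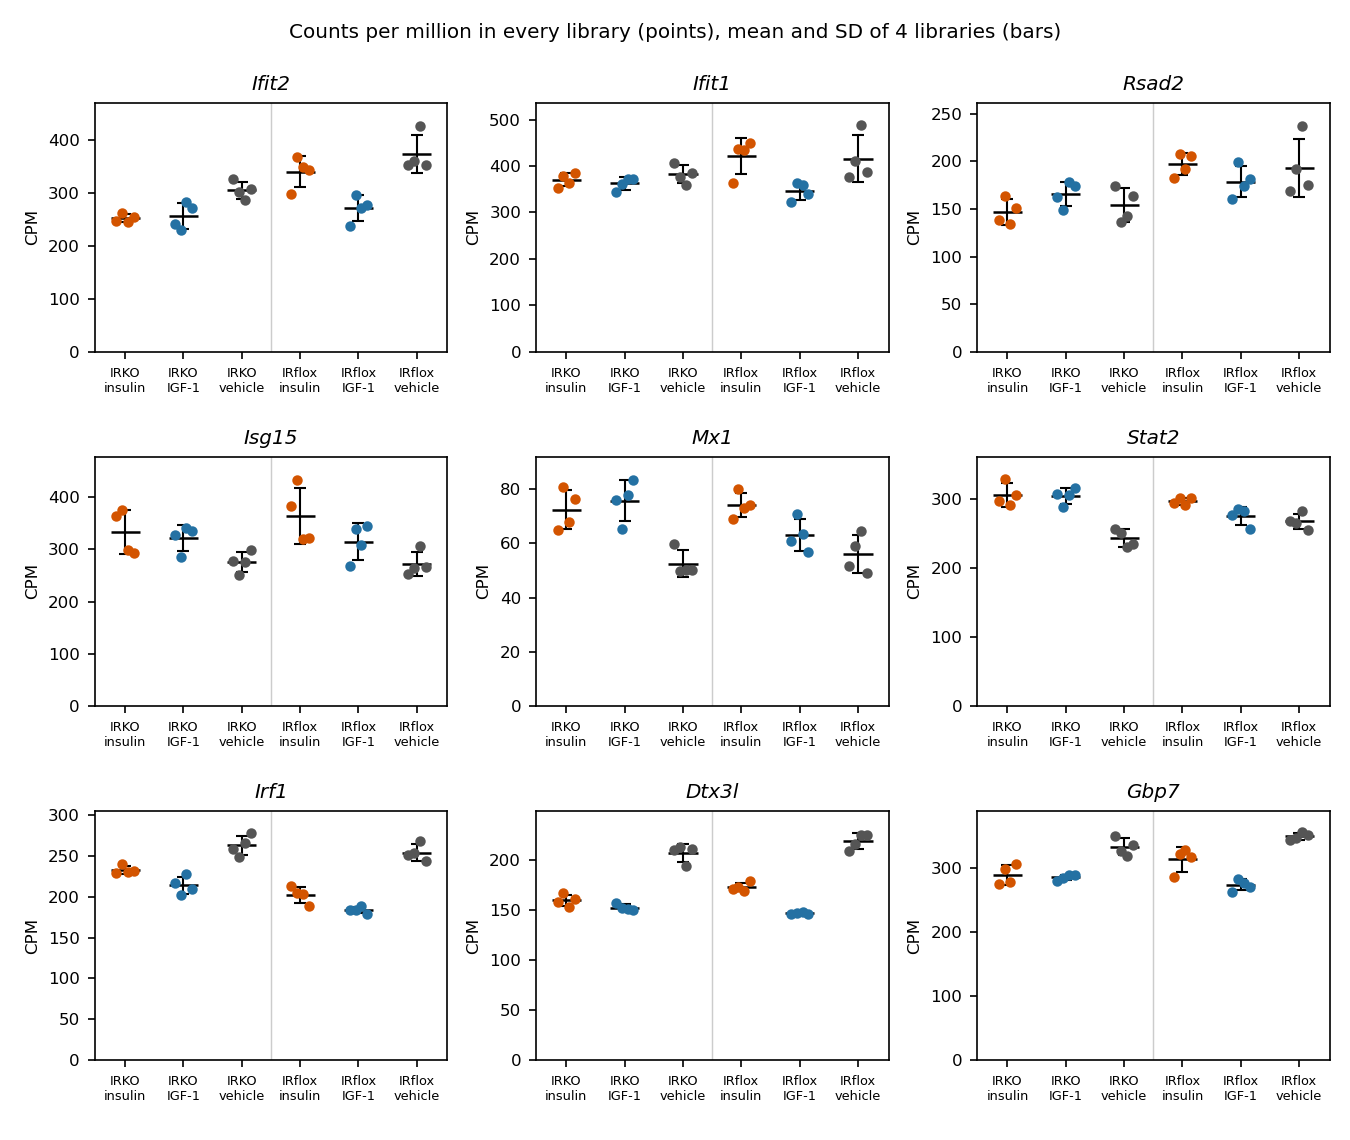
CPM of 9 members in every library (points) with the group mean and SD (bars), by genotype and treatment; each panel's axis starts at 0. Dtx3l, Irf1 and Gbp7 are lower with either ligand than with vehicle in both genotypes, and Mx1 in IRKO cultures is higher with either.

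The test of whether the genotypes responded differently called 0 members for insulin and 0 for IGF-1, as it did for all genes. For insulin, 4 members had an unadjusted p under 0.05 (5.37% of all genes), the lowest adjusted p was 0.815, for Stat2, and DESeq2 called 0. For IGF-1, the response was higher in IRKO than in IRflox for 35 of 37 members, with a median of 0.11 against 0.00 over all genes, and 12 had an unadjusted p under 0.05, all positive, against 5.27% of all genes. The lowest adjusted p for IGF-1 was 0.223, for Stat2, whose response was higher in IRKO by 0.28 (SE 0.0598). DESeq2 called Stat2 (0.28, adjusted p 0.037) and no other member.

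Deletion of the receptor asked a separate question, how IRKO cultures differ from IRflox cultures under the same treatment. Under vehicle, 6 members were lower in IRKO and 0 higher, where 4.1% of all genes were lower and 3.76% higher (7.86% together). Of the 37, 31 were on the lower side, called or not, with a median of -0.07. Without IRflox vehicle replicate 3 that median was -0.03. Under insulin, 9 were lower and 1 higher (5.53% and 4.94% of all genes, 10.5% together), 33 were on the lower side, and the median was -0.09. Under IGF-1, 0 were lower and 3 higher (3.15% and 3.62%, 6.76% together), with 27 on the higher side and a median of 0.04. Without overlap between the genotypes were 4 members with vehicle (11.3% of all genes), 13 with insulin (15%) and 4 with IGF-1 (13.2%). In each treatment microglia markers were higher in IRKO, with 14 of 17 called in vehicle cultures, 10 with insulin and 8 with IGF-1 and none lower, and their summed ranges in IRKO and IRflox did not overlap under any treatment. Oligodendrocyte lineage sums were higher and neuron sums lower in IRKO under every treatment, also without overlap. They were 332 to 354 CPM in IRKO against 306 to 331 CPM in IRflox vehicle libraries for the oligodendrocyte lineage, and 125 to 137 CPM in IRKO against 147 to 150 CPM in IRflox vehicle libraries for neurons. Astrocyte sums were apart only under IGF-1. The part of these cell types in the differences was not tested.

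Ifit2, with the values given above, was lower in IRKO, at -0.29 under vehicle (SE 0.0609, adjusted p 0.00121) and -0.43 under insulin (SE 0.0616, adjusted p 4.06e-06), both without overlap between genotypes. Under IGF-1 the difference was -0.08 (adjusted p 0.538). Rsad2, at chr12:26442746-26456452, had 138, 163, 134 and 151 CPM in IRKO insulin libraries against 183, 207, 192 and 205 CPM in IRflox insulin libraries. Under vehicle it had 175, 137, 143 and 164 CPM in IRKO libraries against 169, 191, 237 and 175 CPM in IRflox libraries. The insulin groups were apart and the vehicle groups overlapped, with differences of -0.43 under insulin (SE 0.0768, adjusted p 0.000163) and -0.33 under vehicle (SE 0.0763, adjusted p 0.00397). Under IGF-1 it was -0.11 (adjusted p 0.478). Ifit3 had 866, 889, 909 and 890 CPM in IRKO insulin libraries and 896, 886, 829 and 904 CPM in IRKO vehicle libraries, and Ifit3b had 276, 269, 274 and 278 CPM in IRKO insulin libraries and 266, 274, 244 and 274 CPM in IRKO vehicle libraries. Against the IRflox values given above neither gene overlapped under either treatment, with differences for Ifit3 of -0.22 under vehicle (adjusted p 0.00552) and -0.20 under insulin (adjusted p 0.00995), and for Ifit3b of -0.20 under vehicle (adjusted p 0.00954) and -0.24 under insulin (adjusted p 0.00153). Without IRflox vehicle replicate 3 the vehicle contrast called 2 members, Ifit2 and Dhx58, and the adjusted p was 0.0622 for Rsad2, 0.0647 for Ifit3, 0.114 for Ifit3b and 0.13 for Stat2. Ifit3b also lost its vehicle call without IRKO vehicle replicate 3 (0.0657), and Ifit3 its insulin call without IRflox insulin replicate 2 (0.0526).

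Dhx58 encodes LGP2, a regulator of the RNA sensors, at chr11:100694884-100704271. It had 52.1, 48.2, 48.9 and 49.1 CPM in IRKO vehicle libraries against 53.9, 59.0, 59.3 and 55.1 CPM in IRflox vehicle libraries. The groups did not overlap, and the difference was -0.20 (SE 0.0504, adjusted p 0.00946). Ifi44, at chr3:151730922-151749960, had 268, 280, 256 and 283 CPM in IRKO insulin libraries against 286, 326, 337 and 321 CPM in IRflox insulin libraries. Again without overlap, the difference was -0.23 (SE 0.0462, adjusted p 0.000816). Irf1 went the other way, as the only member called higher under insulin, by 0.20 (SE 0.041, adjusted p 0.00078), although Ifi27 was also called higher by DESeq2 (0.12, adjusted p 0.0455), with library size alone (0.0308) and with a filter on a mean CPM of at least 1 (0.0431). It was also higher under IGF-1, by 0.22 (SE 0.0413, adjusted p 0.000395), and it did not overlap between genotypes under either ligand. Mx1 was higher under IGF-1 by 0.26 (SE 0.0752, adjusted p 0.0229) and Stat2 by 0.14 (SE 0.0422, adjusted p 0.0301), whereas Stat2 was lower under vehicle, at -0.14 (SE 0.0423, adjusted p 0.0326). These calls of Mx1 and Stat2 were lost when single libraries were left out. Under IGF-1, Mx1 was lost without IRflox replicates 1 or 4 or IRKO replicates 1, 3 or 4 (adjusted p 0.0597 to 0.123), and Stat2 without IRflox replicate 4 or IRKO replicates 1, 3 or 4 (0.0768 to 0.16). Under vehicle, Stat2 was also lost without IRflox replicate 2 (0.0563) or IRKO replicates 3 (0.146) or 4 (0.114), and in the fit of only the groups compared (0.0643). Under insulin, the count of lower members was 5 without IRflox replicate 2 or IRKO replicate 1, and 6 without IRflox replicate 4 or IRKO replicate 3. Under IGF-1, 5 members were called without IRflox replicate 2, 2 without IRflox replicate 1, and Irf1 alone without IRflox replicate 4 or IRKO replicates 1, 3 or 4.

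The rest of the interferon pathway was read from lists of its genes. Of the 10 receptors, kinases and STATs reported, 9 were lower with insulin and 7 with IGF-1 in IRKO cultures, where 21.7% and 25.1% of all genes were lower. In IRflox cultures 6 of the 10 were lower with insulin and 6 with IGF-1, where 21.4% and 24.4% of all genes were lower, and 0 of the 10 were higher in any of these 4 comparisons. Tyk2, the kinase bound to the type I receptor, had 82.9, 81.4, 76.8 and 79.6 CPM in IRKO insulin libraries, 75, 67.8, 72.3 and 72.4 CPM in IRKO IGF-1 libraries, and 105, 113, 109 and 109 CPM in IRKO vehicle libraries. In IRflox cultures it had 69.8, 68.9, 66.9 and 63.3 CPM with insulin, 63.2, 61.2, 63.1 and 59.7 CPM with IGF-1, and 109, 111, 102 and 105 CPM with vehicle. No ligand library overlapped a vehicle library, and Tyk2 changed by -0.45 with insulin and -0.60 with IGF-1 in IRKO cultures and by -0.67 with insulin and -0.79 with IGF-1 in IRflox cultures (adjusted p 8.58e-12 or lower). It was higher in IRKO than in IRflox under insulin by 0.26 (adjusted p 7.41e-05) and under IGF-1 by 0.22 (adjusted p 0.00102). Between the ligands in IRKO cultures, Tyk2 was higher with insulin than with IGF-1 by 0.16 (adjusted p 0.0347). The receptor genes Ifnar1 and Ifnar2 were called only with insulin in IRKO cultures, at -0.10 and -0.13, and Jak1 was lower with each ligand in both genotypes, at -0.10 to -0.16. The 20 sensing and adaptor genes were called in both directions, with 5 to 7 higher and 7 to 8 lower in each comparison with vehicle, where 24.3 to 26.9% of all genes were higher and 21.4 to 25.1% lower, so the count of higher genes is no result about the list. Between insulin and IGF-1, 0 of the 20 were called in either genotype (2.67% of all genes in IRKO and 2.59% in IRflox). Of the 8 brakes on the pathway, 1 to 3 were higher and 2 to 3 lower in each comparison with vehicle, beside the same shares of all genes, and 0 were called between insulin and IGF-1.

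A list of 73 other interferon-induced genes, of which 72 were tested, was read in the same contrasts. This list, too, was chosen with earlier results of these data known. In IRKO cultures 1 was higher with insulin than with IGF-1 and 0 lower (1.06% and 1.61% of all genes), and the median was -0.01. In IRflox cultures 16 were higher and 0 lower (1.49% and 1.1% of all genes), 65 of 72 were on the insulin side, and the median was 0.14. Irgm2, an immunity-related GTPase, was the 1 called in IRKO. It had 254, 281, 253 and 261 CPM in IRKO insulin libraries, 227, 229, 237 and 237 CPM in IRKO IGF-1 libraries, 277, 298, 282 and 285 CPM in IRflox insulin libraries, and 233, 230, 244 and 221 CPM in IRflox IGF-1 libraries. Insulin and IGF-1 libraries did not overlap in either genotype, with differences of 0.18 in IRKO (adjusted p 0.00928) and 0.30 in IRflox (adjusted p 1.27e-05). Gbp5 and Gbp6, guanylate-binding relatives of the members, were higher with insulin than with IGF-1 in IRflox cultures by 0.21 (adjusted p 6.84e-05) and 0.22 (adjusted p 0.000152). Gbp6 had 1325, 1387, 1226 and 1389 CPM in IRKO insulin libraries, 1283, 1250, 1261 and 1256 CPM in IRKO IGF-1 libraries, and 2505, 2447, 2440 and 2489 CPM in IRKO vehicle libraries. It was below vehicle with either ligand, at -0.89 with insulin and -0.97 with IGF-1 in IRKO cultures and -0.76 with insulin and -0.98 with IGF-1 in IRflox cultures (adjusted p 7.03e-21 or lower). Gbp6 shares 29.0% of its exon length with another annotated gene, so its counts are uncertain. Between genotypes, 10 of the 72 were lower in IRKO and 2 higher under vehicle (4.1% and 3.76% of all genes), 15 were lower and 0 higher under insulin (5.53% and 4.94%), and 1 was lower and 11 higher under IGF-1 (3.15% and 3.62%). Iigp1, another immunity-related GTPase, was lower in IRKO, at -0.30 under vehicle (adjusted p 2.11e-05) and -0.38 under insulin (adjusted p 2.03e-07).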

How the data were processed

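The 37 members and the other gene lists were chosen with earlier results of these data known. The authors deposited raw, unnormalized counts per gene, 1 file per library. Tools in the submitters' processing notes, without their roles, are DESeq2, edgeR, STAR 2.7.7a and R 4.0.4, with the build mm10; which program counted reads, and on which annotation, is not given in the sources used here. Per the labels' protocols, poly-A, unstranded libraries started from 2 µg of RNA of integrity score above 7 and were read as 150 bp pairs. Lines that name no gene were left out. Reads that the authors did not list as unique overlap with a gene were 14.5 to 23.2% of all reads. Gene counts summed to 4.55 to 4.93% more than the reads so listed, and the reason is not given in the sources used here.

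Tests on the deposited counts used edgeR 4.0.16 (R 4.3.3, limma 3.58.1). Genes passing edgeR's filter (minimum count 10, minimum total 15) were scaled by TMM (factors 0.982 to 1.018), and all 24 libraries entered 1 quasi-likelihood fit with 6 group means. The threshold was an adjusted p of 0.05 (Benjamini-Hochberg over all 15599 genes in each of 12 comparisons); differences are log2 with standard errors and 95% intervals, two-sided. CPM used TMM library sizes, with a prior count of 2 on the log2 scale. Depth was 15429688 to 19010986 counts per library, and the biological coefficient of variation was 4.92%. Replicates differed by more than sampling noise (chi-square per gene 2.17 to 6.86), which does not show whether they were separate cultures. Each was counted as 1 library. The code was tested on simulated counts. Values in every library are given for up to 8 members of lowest p among those called between insulin and IGF-1 (8 in IRflox, 0 in IRKO) and up to 6 among those called in every other comparison; Zbp1, Irf9 and members named at a threshold were chosen after their values were seen. From the lists, up to 4 of lowest p per comparison could be named, with Ifnar1, Ifnar2, Jak1, Tyk2 and Insr always; 1 further gene of that rule is not reported here. Gene coordinates are 1-based on mm10 from GENCODE M21. Alternatives were DESeq2 1.42.0, its size factors in edgeR, library size alone, 2 other filters, a fit of only the groups compared, the replicate number as a block, and leaving out each library.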

Additional observations from a re-analysis of the deposited data

Results flagged for a closer look

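In 15 of 222 combinations of a member and a group, 1 library stood away from the other 3 by more than Dixon's 95% limit. Chance alone marks about 1 in 20 groups, and members moved together within a library, so these are not separate events. Vehicle replicate 3 of IRflox was high for Ifit2 (426.7 CPM against 353.3 to 361.3 CPM in the other 3), Ifit3 (1166 against 956.8 to 990.9 CPM), Ifit3b (352.7 against 285.6 to 292.3 CPM) and Irf7 (374.6 against 321.1 to 326.7 CPM). Vehicle replicate 4 of IRflox was low for Herc6, the mouse ISG15 ligase (216.5 against 227.1 to 228.3 CPM). Among IRKO vehicle libraries, replicate 1 was high for Irf7 (322.3 against 317.5 to 317.7 CPM) and Mx1 (59.81 against 49.74 to 50.12 CPM), and replicate 3 was low for Dtx3l (193.6 against 209.9 to 213.1 CPM). IRKO insulin replicate 2 was high for Zbp1 (80.61 against 76.96 to 77.47 CPM), and IRKO IGF-1 replicate 2 was low for Bst2 (645.8 against 698.2 to 708 CPM).

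With insulin in IRflox cultures, replicate 1 was low for Ifit1 (364.1 against 435.2 to 448.5 CPM) and high for Trim21, a ubiquitin ligase that binds antibodies (83.04 against 78.2 to 78.81 CPM), and replicate 2 was high for Tap1 (321.2 against 295.3 to 296.9 CPM). With IGF-1 in IRflox cultures, replicate 1 was low for Cmpk2, a mitochondrial nucleotide kinase (98.31 against 117.9 to 121.7 CPM), and replicate 2 was high for Parp14 (586.8 against 557.2 to 562.3 CPM). Whether RNA quality or handling of these libraries moved with the values was not tested.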

How the results depend on the processing

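Counts of members called, both directions together, stayed within 1.5 times the reported count under every alternative, with these exceptions. Insulin against IGF-1 in IRKO called 1 member, Rsad2, with no filter beyond 1 count (-0.18, adjusted p 0.00255) and 1 when only the groups compared were fitted (adjusted p 0.0463). The difference between genotypes in the IGF-1 response called 2 with no filter (Stat2 and Mx1) and 1 with DESeq2. The difference of the ligand differences called 4 with no filter (Ifit1, Ifit2, Rsad2 and Cmpk2). By direction, IGF-1 in IRflox called 3 higher with DESeq2 or a mean CPM filter, against 5, and IRKO against IRflox under insulin called 2 higher with DESeq2, library size alone or a mean CPM filter, against 1. The cause was not tested. With each library left out in turn, IRKO against IRflox called 2 to 7 members in vehicle cultures, 7 to 12 with insulin and 1 to 5 with IGF-1. The ranges were 16 to 21 with insulin and 16 to 22 with IGF-1 in IRKO and 20 to 23 and 18 to 21 in IRflox against vehicle, 0 and 10 to 17 for insulin against IGF-1 in IRKO and IRflox, and 0 for the 3 differences between genotypes. No member called in a comparison changed direction. Over 4440 member results with 1 library left out, 122 lost and 40 gained a call. Of the 14 members called between insulin and IGF-1 in IRflox, 9 were called in every alternative; Ifit3, Parp9, Parp14, Tap1 and Ifi44 were not.

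Same-numbered libraries of 2 groups did not deviate together (correlation -0.115 to 0.0503 over genes, against -0.104 to 0.143 for libraries of unlike number). The labels state no pairing, and these correlations cannot show whether libraries of the same number shared a culture or a batch. With the replicate block, members called numbered 19 with insulin and 22 with IGF-1 in IRKO and 21 and 21 in IRflox against vehicle, 0 and 15 for insulin against IGF-1 in IRKO and IRflox, and 6, 10 and 3 for IRKO against IRflox (vehicle, insulin, IGF-1); the block called 0 in each difference between genotypes. It ended 1 call, that of Dhx58 with insulin in IRKO (0.12, adjusted p 0.0559). Limits are the 4 libraries per group, which bound the differences that could be called, the genes that share sequence (Ifit3 with Ifit3b, and Oas1a, of whose 75-base stretches 47.6% occur in Oas1g) and the joint movement of members within a library.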
